A study of Macaca mulatta with 27 samples.

Results

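Lines 3006 and 3806 are embryonic stem cell lines of the rhesus macaque, and each derives from the inner cell mass of 1 embryo. They share the sire M106 and differ in their dam, which was F88 for 3006 and F32 for 3806. The comparison took all arrays that the labels assign to these lines, 3 of 3006 (a, b and c) against 3 of 3806 (a, b and c), 6 of the 27 arrays of a series of 10 pedigreed lines. It covered all 52707 non-control probe sets of the Affymetrix rhesus array. Both lines are female by the labels. Both were freed of trophectoderm by immunosurgery and plated on mitomycin-treated mouse embryonic fibroblasts, in a serum replacement medium with bFGF, activin A and human LIF. Colonies were scraped off for RNA, so feeder cells may have come along. Whether the 3 arrays of a line hold RNA of separate cultures is not in the labels. The p-values below therefore rest on a spread between arrays that may be technical, and each line stands for 1 embryo.

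Primate embryonic stem cells are kept undifferentiated by FGF signalling through the ERK kinases and by activin or nodal signalling through SMAD2 and SMAD3. Immediate early genes, such as those of the FOS, JUN and EGR families, are transcribed soon after growth factor or stress signals without new protein synthesis, and ERK is one of their main inputs. YAP and its paralogue TAZ are coactivators that enter the nucleus when cells spread or are under tension, and they switch on genes for matricellular and cytoskeletal proteins together with serum response factor.

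Values are log2(signal + 16) throughout, differences are 3006 minus 3806 on that scale with their standard error (SE), and adjusted p-values come from limma with Benjamini-Hochberg adjustment over all 52707 probe sets. A probe set was called where its adjusted p was under 0.05. Each gene is represented by its brightest probe set. Signals do not rank 1 gene against another, because probe sets differ in affinity.

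The arrays of 3006 carried signs of lower RNA integrity than those of 3806. The GAPDH ratio, the signal at the 3' end of the transcript over that at its 5' end and a measure that grows with RNA breakdown, was 6.15, 2.98 and 3.41 on 3006a, b and c, against 2.13, 2.10 and 1.58 on 3806a, b and c. Probe sets called present made up 39.7%, 42.7% and 42.5% on the arrays of 3006 and 42.4%, 45.0% and 46.6% on those of 3806. Of 7 markers of pluripotent cells, 6 were present on all 3 arrays of 3006 and 7 on all 3 of 3806. CDX2, GATA2 and KRT7 of trophoblast, TBXT, MIXL1 and KDR of mesoderm, GATA4 of endoderm, PAX6 and NEUROG2 of neural ectoderm and PTPRC of blood were called absent on all 6 arrays. Markers present on all 3 arrays numbered 3 of 5 endoderm genes in 3006 and 4 in 3806, 2 of 7 trophoblast genes in each line, 1 of 4 mesoderm genes in each, and 0 of the neural and blood genes. The summed signal of the endoderm markers was 2062 to 2207 in 3006 and 2614 to 3102 in 3806, and that of the 2 blood markers was 148 to 203 and 234 to 550. The summed signal of 8 fibroblast and stroma markers was 33811 to 40347 in 3006 and 19236 to 23504 in 3806. It was 14082 to 63062 on the 21 arrays of the other lines, including the line with 1 array. RNA integrity and the stromal, endoderm and blood sums thus moved with the line. Fits without the arrays whose GAPDH ratio exceeded 3, and with that ratio as a covariate, are given beside the results. The first leaves 3006 with the single array 3006b, whose ratio is still above every array of 3806 and whose spread is assumed to be that of the other lines. The part of the marker sums in the differences was not tested.

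In line 3006, 10 of 16 measured immediate early genes and 9 of 22 YAP and cytoskeletal genes were called higher than in 3806. POU5F1, SOX2 and NANOG, the core pluripotency factors, were not called. Of 52707 probe sets, 1642 (3.12%) were called, of which 822 (1.56%) were higher and 820 (1.56%) lower in 3006. By gene, 603 of 14132 (4.27%) were called, 315 (2.23%) higher and 288 (2.04%) lower. The 3 values of one line lay wholly above those of the other for 1636 of the 1642 called probe sets, and for 12687 of all probe sets (24.1%). An absolute difference of at least 1 was seen at 1217 called probe sets, and of at least 2 at 229. Present calls on all 3 arrays of 3006 and none of 3806 were found at 71 called probe sets, and the opposite at 72. A further 239 called probe sets were absent on all 6 arrays, where signals may be background. Centring each array on its median changed the balance, to 626 higher and 369 lower. Leaving out 3006a, 3006b, 3806a, 3806b or 3806c gave 742, 673, 684, 898 and 659 calls, while 1549 were made without 3006c. With 3006b as the only array of its line, which the limit on the GAPDH ratio leaves, 750 were called, 532 of them among the 1642.

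The pair was compared with the other pairs of lines as a description. The distance between the line means (1 minus Pearson r over all non-control probe sets) was 0.0303 for 3006 and 3806. Between single arrays it was 0.0405 to 0.0493 within 3006, 0.0312 to 0.0376 within 3806 and 0.0484 to 0.0636 between the lines. Array 3006c was closer to 3806b (0.0484) than to 3006a (0.0493). Of the 35 other pairs of lines without the single-array line 2906, 2 were farther apart. Both held 3006, with 206 (0.0334) and with 106 (0.0305). The number of calls, 1642, stood above the 48 to 1577 of those 35 pairs (median 317). Of the 7 other lines with more than 1 array, 206 and 2406 are female by the labels and 106, 306, 906, 2706 and 3106 are male. The part of sex in comparisons with them was not tested. Against the 7 other lines together, 1998 probe sets (3.79%) were called for 3006 and 411 (0.78%) for 3806. These contrasts share their arrays with the comparison of the pair. Without single arrays of 3006 the first count was 591 (without 3006a), 645 (without 3006b) and 1562 (without 3006c), and without single arrays of 3806 the second was 131, 184 and 166 (without 3806a, b and c). At 668 of the 1642 called probe sets (40.7%) only the mean of 3006 lay outside the range of the 7 other lines. Only the mean of 3806 lay outside at 269 (16.4%), both lay outside at 603 (36.7%), and neither did at 102 (6.2%). Over all 52707 probe sets these shares were 22.2% for 3006 alone, 14.0% for 3806 alone, 9.3% for both and 54.5% for neither, and the called ones were chosen for a difference between the lines.

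Immediate early genes were higher in 3006. Of 16 measured, 10 were called higher and 0 lower, with a median difference of 1.87, against 2.23% higher and a median of -0.01 over all genes. The lists were chosen with earlier results of these data known. Also, 13 of these 16 genes were present on all 3 arrays of 3006, against 7997 of all 14132 genes, so the 2 shares are not of like sets. EGR2, a zinc finger transcription factor, read 12.03, 12.76 and 12.10 on the arrays of 3006 and 8.02, 8.21 and 7.71 on those of 3806. All 3 arrays of 3006 lay above all 3 of 3806, by 4.32 ± 0.85 on average (SE, adjusted p = 0.00696). KLF10, a zinc finger factor induced by TGF-beta, read 14.12, 14.25 and 13.70 in 3006 and 10.50, 10.93 and 10.74 in 3806. Its groups were again apart, by 3.31 ± 0.48 (adjusted p = 0.000664), and the mean of 3006 exceeded the highest of the 7 other lines, 12.12. NR4A1, an orphan nuclear receptor, read 11.20, 11.56 and 11.15 in 3006 and 8.71, 9.57 and 8.98 in 3806. IER2, which encodes a growth factor-induced nuclear protein, read 13.40, 13.27 and 12.67 in 3006 and 11.01, 11.09 and 10.84 in 3806. Neither gene overlapped between the lines, with differences of 2.22 ± 0.38 and 2.14 ± 0.35 (adjusted p = 0.00260 and 0.00199). EGR4 was called present on all 3 arrays of 3006, at a mean of 10.27, and on 0 of 3806, at 6.73. It was at least 11.7-fold higher by the bound for absent calls (difference 3.54 ± 0.93, adjusted p = 0.0399). Here and below, such a bound allows for the absent calls and not for the spread between arrays.

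The other called members were JUNB and ATF3, which encode AP-1 family transcription factors, DUSP1, a phosphatase that switches off MAP kinases, KLF6 and IER5, with differences of 1.37 to 1.95. FOS, named here because it is the best known member, read 10.53, 11.31 and 10.63 in 3006 and 7.97, 8.28 and 7.80 in 3806. Its arrays did not overlap, but its difference of 2.81 ± 0.90 was not called (adjusted p = 0.0976), and it was called in the fit of the 6 arrays alone (adjusted p = 0.0104). NR4A2, BTG2 and ZFP36 had negative differences of -0.52, -0.36 and -0.68 that were not called. The same 10 genes were called with 3006b as the only array of its line, where the median difference was 2.11. With the ratio as a covariate 8 were called, without ATF3 and DUSP1 (adjusted p = 0.195 and 0.0641), and 6 to 9 when single arrays were left out (6 without 3006b, 3806a or 3806c). EGR4 was called in none of these 6 fits (adjusted p = 0.0648 to 0.149), ATF3 in 1, KLF6 in 2 and DUSP1 in 3.

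**Figure D1:**
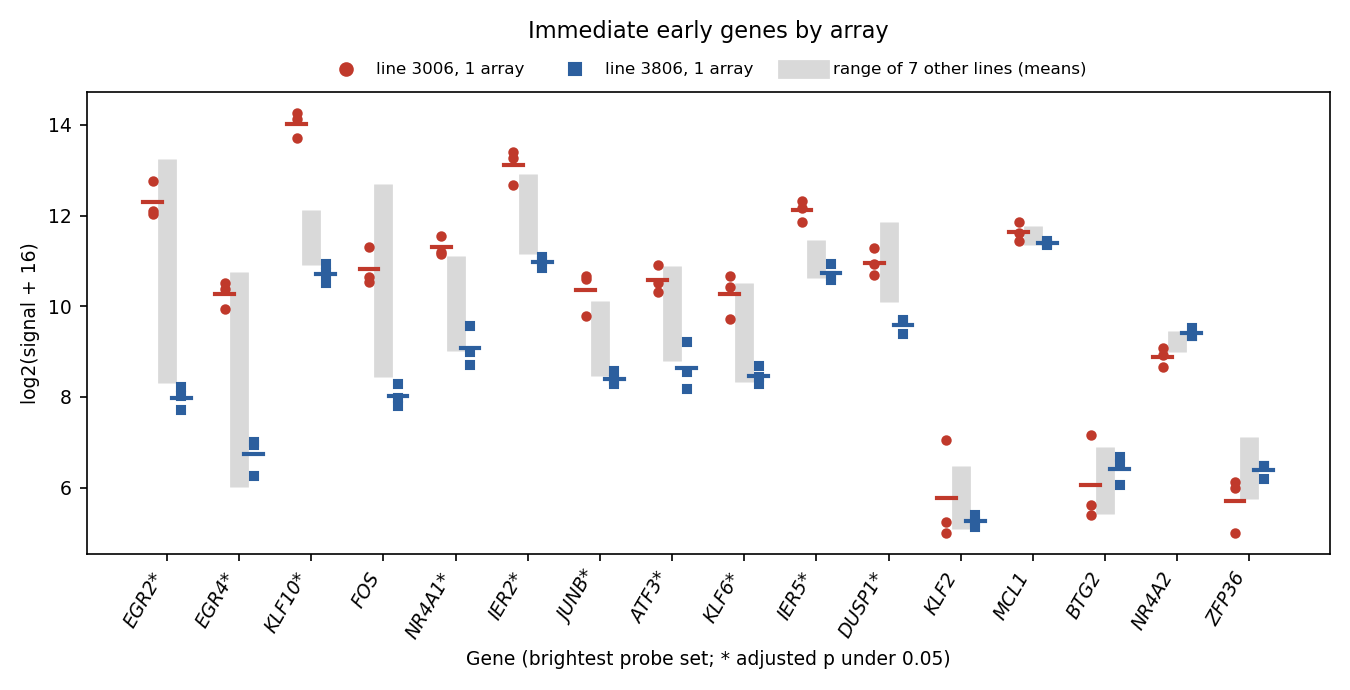
Level of the 16 immediate early genes, as log2(signal + 16), on each array of line 3006 (circles) and line 3806 (squares), with horizontal bars at the line means and grey bars for the range of the means of 7 other lines. Genes are ordered by difference, and the 10 with an asterisk had an adjusted p under 0.05, each with the 3 arrays of 3006 above those of 3806.

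Of the 10 called immediate early genes, 5 were highest in 3006 among all lines, and the other 5 were higher in line 3106, which has the same sire and dam. Among the first 5, line 3106 was close to 3006 for IER2, NR4A1 and JUNB. These averaged 13.11, 11.30 and 10.35 in 3006, against 12.91, 11.12 and 10.12 in 3106. KLF10 and IER5 averaged 14.0 and 12.1 in 3006, against 11.7 and 11.5 in 3106. EGR2 and EGR4 averaged 12.29 and 10.27 in 3006, against 13.24 and 10.76 in 3106. ATF3, DUSP1 and KLF6 averaged 10.58, 10.96 and 10.26 in 3006, against 10.89, 11.85 and 10.50 in 3106, and FOS 10.82 against 12.68. Line 3806 had the lowest EGR2 mean of all 10 lines, 7.98. ARC, an activity-regulated immediate early gene of neurons that was not on the list, was among the 15 genes furthest above. It averaged 10.99 in 3006 and 6.99 in 3806, was present on 3 arrays of 3006 and 0 of 3806, and was at least 15.9-fold higher (adjusted p = 0.00195). Line 3106 had ARC at 10.52.

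Of 19 FGF and ERK pathway genes, SPRY4, SPRED2 and PHLDA1 were called higher in 3006 and 0 lower, against 2.23% and 2.04% of all genes, with a median difference of 0.14. SPRY4, a sprouty protein that restrains receptor tyrosine kinase signalling and is itself induced by ERK, read 12.06, 12.59 and 11.74 in 3006 and 8.64, 8.97 and 9.05 in 3806. The lines were apart by 3.24 ± 0.37 (adjusted p = 5.31e-05), and the means of the 7 other lines, 9.58 to 10.86, lay between those of 3006 and 3806. PHLDA1, a pleckstrin homology protein induced by ERK, averaged 13.02 ± 0.37 in 3006 and 9.24 ± 0.33 in 3806 (SD, n = 3 arrays each), without overlap and with a difference of 3.78 ± 0.79 (adjusted p = 0.00996). Of its 5 probe sets, 4 were called higher, and the gene was not called without 3006b (0.0525). SPRED2, another inhibitor of the pathway, differed by 1.64 ± 0.36 (adjusted p = 0.0146) and was not called without the arrays of high GAPDH ratio (adjusted p = 0.0640) or without 3006b, 3806a or 3806c. Dimmer SPRED2 probe sets differed by -0.32 and 1.03 and were not called. The inhibitors SPRY1, SPRY2 and IL17RD differed by 0.60, 0.10 and 0.91, and the phosphatases DUSP4 and DUSP5 by 1.13 and 1.97, none called. The ETS factors ETV1 and ETV4 differed by 0.14 and 0.56 and were not called. FGF2 differed by 0.09 and FGFR2 by -0.01. The FGF4 mean was 6.50 in 3006 and 7.70 in 3806, and the FGF19 mean was 9.88 and 8.83, with adjusted p of 0.0962 and 0.0916.

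In the nodal, activin and TGF-beta pathway, 3 of 20 measured genes were called higher and 0 lower, against 2.23% and 2.04% of all genes, with a median difference of 0.30. NODAL, the ligand, read 11.27, 11.44 and 10.75 in 3006 and 9.90, 9.14 and 9.64 in 3806, so that its groups were separate and 1.60 ± 0.30 apart (adjusted p = 0.00503). A second, dimmer NODAL probe set differed by 0.48 (adjusted p = 0.546). SMAD3, the signal transducer, read 10.43, 10.59 and 10.24 in 3006 and 8.79, 8.98 and 8.60 in 3806. SMAD7, the inhibitory SMAD that the pathway induces, read 10.95, 11.64 and 11.61 in 3006 and 9.59, 10.07 and 9.89 in 3806. Both genes were separate between the lines, by 1.63 ± 0.26 and 1.55 ± 0.25 (adjusted p = 0.00151 and 0.00186). Of 4 SMAD3 probe sets 2 were called, and the others differed by 0.38 and 0.66. For SMAD7 the mean of 3806, 9.85, was below all 7 other lines (10.84 to 12.13), while that of 3006, 11.40, lay within them. SMAD2, SMAD4 and the receptors ACVR1B and ACVR2B differed by 0.30, -0.20, 0.20 and -0.56 and were not called. Of 26 BMP and WNT pathway genes, the ligand WNT3 was called higher (2.08 ± 0.49, adjusted p = 0.0218) and the receptor FZD5 lower (-0.89 ± 0.24, adjusted p = 0.0486). FZD5 was not called after median centring, on the 6 arrays alone, without the arrays of high GAPDH ratio or with that ratio as a covariate (adjusted p = 0.117, 0.114, 0.286 and 0.211), nor WNT3 on the 6 arrays alone or with the covariate (0.0731 and 0.0624). Of the 6 fits without 1 array, both were called in the fit without 3006c and in no other. Dimmer probe sets of these genes differed by 0.77 and 0.42 (WNT3) and 0.04 (FZD5) and were not called.

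The list of YAP and cytoskeletal targets, which also holds the regulators YAP1, WWTR1, TEAD1 and TEAD4, was also higher in 3006. Of 22 measured genes 9 were called higher and 0 lower, against 2.23% and 2.04% of all genes, with a median difference of 0.94. Present calls on all 3 arrays of 3006 were found for 18 of the 22, against 7997 of all 14132 genes. All 22 differences were above 0, against 6897 of 14132 genes. F3, the tissue factor that starts coagulation, read 12.22, 12.23 and 11.59 in 3006 and 8.51, 9.25 and 8.67 in 3806. THBS1, a matricellular thrombospondin, read 13.64, 13.86 and 13.47 in 3006 and 10.18, 11.40 and 10.14 in 3806. AMOTL2, an angiomotin that binds YAP, read 13.34, 13.60 and 12.66 in 3006 and 10.50, 10.76 and 10.49 in 3806. For all 3 genes every array of 3006 was above every array of 3806, with differences of 3.20 ± 0.69, 3.08 ± 0.82 and 2.62 ± 0.63 (adjusted p = 0.0124, 0.0431 and 0.0241), and the 3006 means were above those of the 7 other lines. WWTR1, which encodes TAZ itself, read 12.69, 12.88 and 12.33 in 3006 and 10.72, 10.66 and 10.20 in 3806, 2.11 ± 0.37 apart (adjusted p = 0.00298). Dimmer WWTR1 probe sets differed by 1.54 (called) and 1.19 (not called, adjusted p = 0.0622).

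CCN2, a matricellular protein widely read as a YAP target, averaged 13.92 in 3006 and 11.27 in 3806 (difference 2.65 ± 0.71, adjusted p = 0.0438). Its 2 dimmer probe sets did not move with it, at -0.03 each, and it was not called after quantile normalization (adjusted p = 0.0715) or median centring (0.0507). THBS1 also missed the threshold under these scalings (0.0564 and 0.0504). Of its 5 probe sets 2 were called, of which the dimmer was absent on all 6 arrays. Neither gene was called when any single array was left out (0.0608 to 0.173 for CCN2, 0.0585 to 0.158 for THBS1). AMOTL2 was called in 1 of these 6 fits and F3 in 2. The remaining called members were the contractile and actin-binding genes TPM1, CNN1 and MYL9 and the receptor tyrosine kinase AXL, at 1.04 to 1.96. MYL9 and AXL were not called on the 6 arrays alone (0.0611 and 0.0792), with 3006b as the only array of its line (0.152 and 0.131) or with the covariate (0.125 and 0.109). CCN1, the paralogue of CCN2, differed by 2.11 ± 0.64 without being called (adjusted p = 0.0770). YAP1 itself differed by 0.21 (adjusted p = 0.848).

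The 19 fibroblast and matrix genes had a median difference of 0.34, with 0 called higher and LUM called lower, against 2.23% and 2.04% of all genes. COL1A2, COL3A1 and FN1 differed by 0.01, -0.18 and -0.10, and COL1A1, VIM and TAGLN by 1.71, 0.73 and 0.83, none called. TAGLN and VIM are high in feeder cells and are also actin or intermediate filament genes of other cells. In bulk RNA, a larger share of cells of a type and more RNA per cell cannot be told apart. Without the arrays of high GAPDH ratio 8 of the 22 YAP and cytoskeletal genes were called, with the ratio as a covariate 5, and 3 to 7 when single arrays were left out (3 without 3006a, 4 without 3806a or 3806c, 5 without 3006b).

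**Figure D2:**
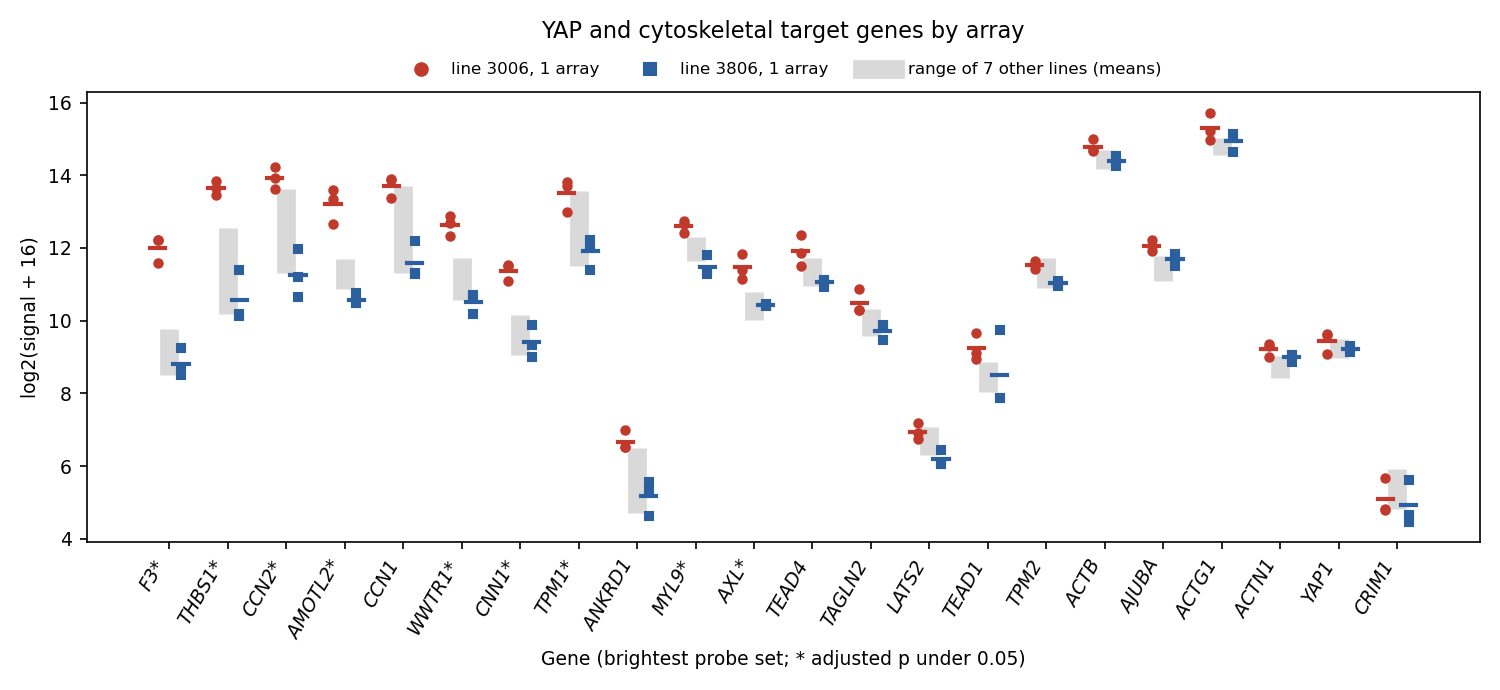
Level of the 22 genes of the YAP and cytoskeletal list, regulators included, as log2(signal + 16), on each array of line 3006 (circles) and line 3806 (squares). Bars stand at the line means, and grey bars give the range of the means of 7 other lines. The mean of 3006 is above that of 3806 for all 22 genes, and the 9 with an asterisk had an adjusted p under 0.05.

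The largest differences on the higher side came from several lists or none. KLF5, a Krueppel-like factor that supports self-renewal in mouse embryonic stem cells, read 11.92, 12.40 and 11.48 in 3006 and 7.02, 7.42 and 7.22 in 3806. The lines were apart by 4.71 ± 0.81 (adjusted p = 0.00272), its second probe set differed by 4.55, and the highest other line was 2706, with the same parents as 3006, at 10.52. BHLHE40, a transcriptional repressor of the circadian and hypoxic responses, differed by 4.32 ± 0.78 (adjusted p = 0.00400). RGCC, a cell cycle regulator, averaged 8.90 in 3006 and 4.86 in 3806, where it was present on 0 arrays, and was at least 15.0-fold higher (adjusted p = 0.000486). PLAU, the urokinase plasminogen activator, read 13.40, 13.06 and 12.42 in 3006 and 8.99, 9.98 and 9.07 in 3806. Its arrays did not overlap and it differed by 3.62 ± 0.63 (adjusted p = 0.00287), with both of its probe sets called. ADM, a vasodilator peptide induced by hypoxia, read 11.37, 11.64 and 10.92 in 3006 and 8.02, 7.80 and 7.51 in 3806, 3.54 ± 0.55 apart (adjusted p = 0.00127). It was the called member among 22 hypoxia and glycolysis genes, whose median difference was 0.15, while 4.27% of all genes were called.

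PHLDA2, an imprinted gene that limits placental growth, read 12.64, 12.69 and 11.75 in 3006 and 8.20, 8.75 and 8.31 in 3806, 3.94 ± 0.67 apart (adjusted p = 0.00239). It was on both the trophoblast and the imprinted list. The other 17 of 18 trophoblast genes were not called. Among 17 imprinted genes the zinc finger gene PLAGL1 was called lower (-1.35 ± 0.36, adjusted p = 0.0409). With 4.27% of all genes called, lists of this size hold few calls or 0. PLAGL1 was not called on the 6 arrays alone, without the arrays of high GAPDH ratio or with the covariate (0.175, 0.466 and 0.0805), or in 5 of the 6 fits without 1 array. AOC3, an amine oxidase of vascular and fat cells, and FAM43A differed by 3.48 and 3.25. DIDO1, a chromatin reader, differed by 3.94 ± 1.03 (adjusted p = 0.0393), and was not called without the arrays of high GAPDH ratio (0.152), after median centring (0.0607) or when any single array was left out (0.0565 to 0.139). PYROXD1, an oxidoreductase, had the largest difference of any gene by its brightest probe set, 12.98 in 3006 and 6.71 in 3806 (6.26 ± 1.25, adjusted p = 0.00778). Its 2 other probe sets differed by 0.33 and -1.37 and were not called, so the gene's level was not settled. The unnamed probe sets furthest above were MmugDNA.7362.1.S1_at and MmugDNA.32309.1.S1_at, at 5.81 and 4.66.

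Smaller groups held a few called genes on the higher side. Over all genes 2.23% were called higher and 2.04% lower, and several of these lists held 1 call. In sterol synthesis 3 of 11 were called higher, with a median difference of 0.64. INSIG1, the sterol-regulated brake on SREBP processing, read 10.63, 11.22 and 11.27 in 3006 and 8.53, 9.15 and 8.68 in 3806, 2.25 ± 0.45 apart (adjusted p = 0.00745) and without overlap. The enzymes SQLE and CYP51A1 differed by 1.36 and 1.17 (adjusted p = 0.0367 and 0.0295). Their dimmer probe sets differed by 1.54 and 1.12 and were not called (adjusted p = 0.0565 and 0.0516). Of the 3, INSIG1 was called without the arrays of high GAPDH ratio, and 0 were called with the ratio as a covariate. Of the 6 fits without 1 array, SQLE was called in 1 and CYP51A1 in 0. Among 18 p53 targets and apoptosis genes 3 were called higher. GADD45B, a stress sensor, read 12.41, 12.56 and 11.92 in 3006 and 9.86, 9.82 and 9.58 in 3806, 2.54 ± 0.25 apart (adjusted p = 6.01e-06). BCL2L11, which encodes the proapoptotic protein BIM, read 11.51, 11.53 and 11.32 in 3006 and 9.28, 9.20 and 9.35 in 3806, 2.18 ± 0.26 apart (adjusted p = 0.000133). The arrays of each line were close together for both genes and far from those of the other line. Dimmer BCL2L11 probe sets differed by 1.06 and 1.39 (called) and by 0.14, 1.12 and 1.67 (not called). TIGAR, a regulator of glycolysis, differed by 0.90 ± 0.23 (adjusted p = 0.0376), and was not called after median centring (0.149), on the 6 arrays alone (0.106) or in 5 of the 6 fits without 1 array.

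The metal-binding protein gene MT1E read 13.80, 13.23 and 12.82 in 3006 and 11.25, 11.19 and 10.46 in 3806, 2.32 ± 0.43 apart (adjusted p = 0.00463). Its transcription factor MTF1 differed by 0.72 ± 0.19 (adjusted p = 0.0415), and these were the called members of 17 metallothionein and antioxidant genes. A dimmer MTF1 probe set differed by 0.33 and was not called. MT2A averaged 14.62 in 3006 and 12.09 in 3806 and was not called (adjusted p = 0.0587). Metallothionein genes are near-identical copies, so probe sets may share their signal. The chaperone regulator BAG3 was the called member of 12 heat shock genes (0.84 ± 0.20, adjusted p = 0.0231), SNAI1 and WNT3 were those of 16 mesoderm genes, and the tubulin TUBB3 was that of 10 neural genes by 1 of its 4 probe sets. SNAI1, a repressor of E-cadherin, averaged 9.43 in 3006 and 7.72 in 3806 (1.71 ± 0.27, adjusted p = 0.00129). CLDN10, a tight junction claudin, was the called member of 16 epithelial genes and was lower (-0.87 ± 0.22, adjusted p = 0.0334). RPL32 was called lower among 14 ribosomal protein genes (-0.81 ± 0.16, adjusted p = 0.00813), of which 12 had positive differences. A dimmer RPL32 probe set differed by -0.47 (adjusted p = 0.640). MTF1, BAG3, TUBB3 and CLDN10 were not called after median centring (adjusted p = 0.0729, 0.0658, 0.128 and 0.107) or on the 6 arrays alone (0.156, 0.147, 0.0944 and 0.0948), nor in 5 of the 6 fits without 1 array. With the GAPDH ratio as a covariate MTF1, BAG3, CLDN10 and MT1E were not called (0.222, 0.148, 0.0974 and 0.0546). Without the arrays of high ratio MTF1, CLDN10 and RPL32 were not (0.255, 0.106 and 0.136). RPL32 was also not called on the 6 arrays alone (0.0684), nor CLDN10 after quantile normalization (0.0521).

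**Figure D3:**
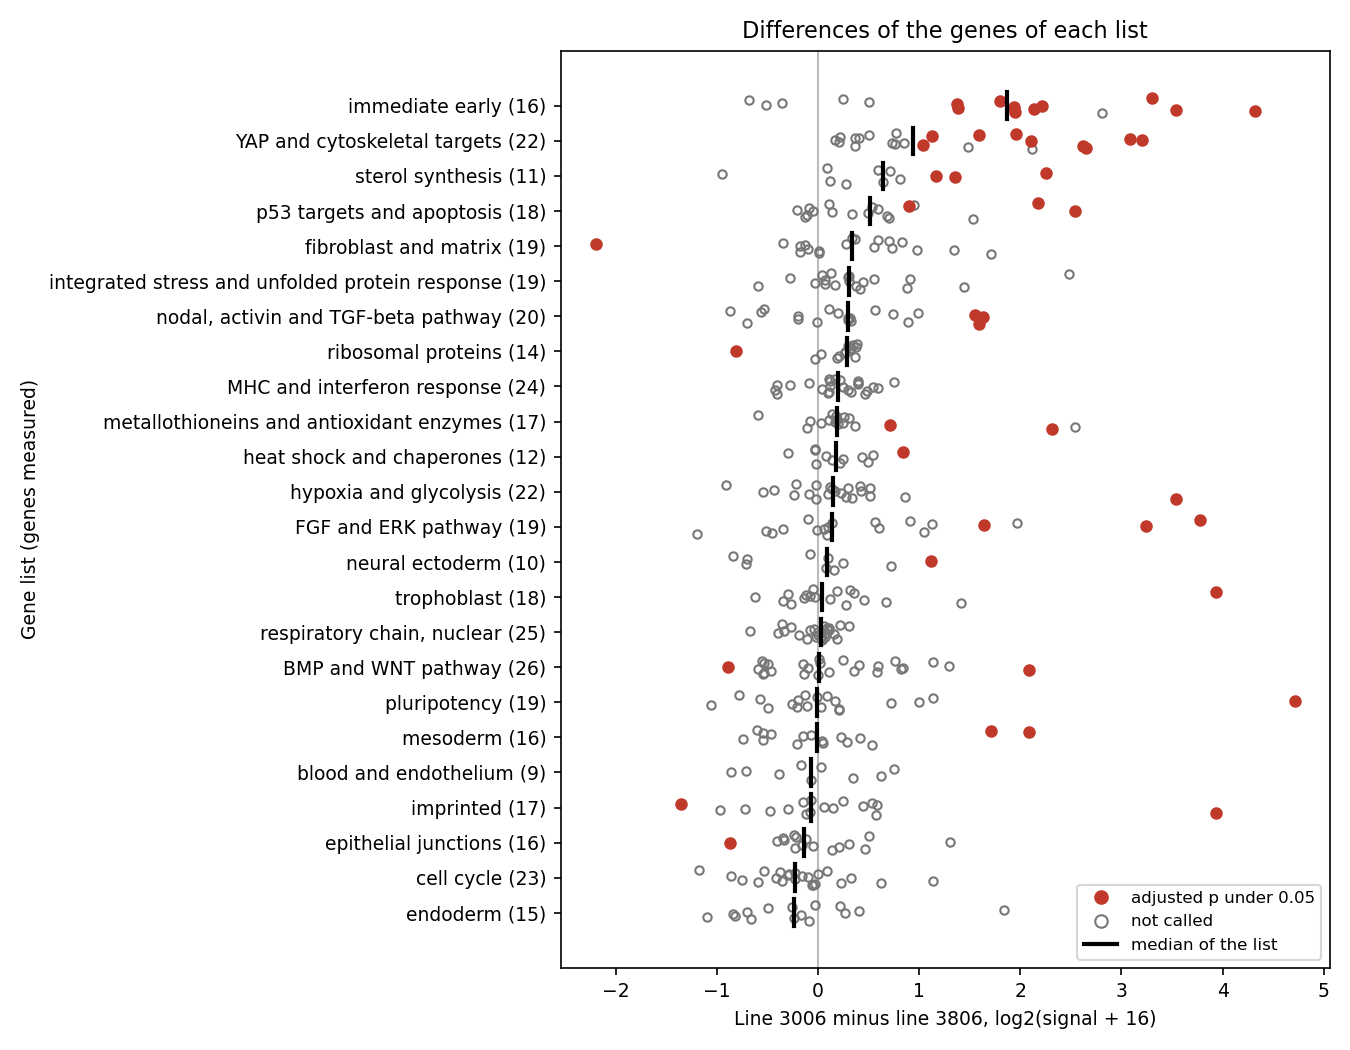
Difference of line 3006 minus line 3806 in log2(signal + 16) for each gene of 24 lists, with filled circles for adjusted p under 0.05, open circles for other genes and black bars at list medians. Immediate early genes (median 1.87) and YAP and cytoskeletal targets (0.94) lie at the top, and most other lists have medians near 0.

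Of 19 pluripotency genes measured 1 was called, KLF5, against 4.27% of all genes, and the median difference was -0.01. POU5F1, the core factor OCT4, read 14.79, 14.45 and 14.58 in 3006 and 14.57, 14.47 and 14.16 in 3806. The arrays overlapped, and the difference was 0.21 ± 0.23 (adjusted p = 0.762), with the sign turned after quantile normalization (-0.01). SOX2 averaged 14.36 in 3006 and 14.15 in 3806 (0.21 ± 0.21, adjusted p = 0.715). Dimmer SOX2 probe sets differed by -0.29 and -0.19 and were not called. NANOG averaged 8.70 in 3006 and 9.20 in 3806 (-0.50 ± 0.30, adjusted p = 0.474). By the brightest probe sets, the arrays of 3006 lay wholly above those of 3806 for SOX2 and wholly below for NANOG. Such a lack of overlap was seen at 24.1% of all probe sets. The de novo methyltransferase DNMT3B differed by -0.20 ± 0.19 (adjusted p = 0.699) and DPPA4 by 0.03 ± 0.23 (adjusted p = 0.978), with DPPA4 at -0.01 after quantile normalization. No gene was called among 23 cell cycle genes (median -0.22, with 6 above 0), 15 endoderm genes (-0.24), 9 blood and endothelial genes (-0.07), 19 genes of the integrated stress and unfolded protein responses (0.31), 24 MHC and interferon genes (0.19) or 25 nuclear respiratory chain genes (0.03). With 4.27% of all genes called, lists of this size hold few calls or 0, and a p that misses the threshold does not show that these levels were equal.

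On the lower side the 15 largest differences, -4.24 to -1.83, did not come from one list. SPMAP2, a sperm microtubule-associated protein gene, read 6.71, 7.13 and 6.53 in 3006 and 10.94, 11.28 and 10.87 in 3806. It was present on 0 arrays of 3006 and all 3 of 3806, which makes it at least 18.9-fold lower in 3006 (adjusted p = 1.33e-09). The means of the 7 other lines, 4.82 to 5.31, were below both, while the single array of line 2906 had 8.66, between the 2 lines. RIT2, a small GTPase of neurons, read 6.42, 6.20 and 6.15 in 3006 and 9.03, 10.12 and 9.74 in 3806, a separation of -3.37 ± 0.30 (adjusted p = 2.78e-06). CDH10, a cadherin of nerve cells, read 9.33, 9.16 and 9.68 in 3006 and 11.35, 11.36 and 11.58 in 3806. Its difference was -2.04 ± 0.26 (adjusted p = 0.000205), and 3806 exceeded all 7 other lines (9.02 to 10.47). SLC16A9, a monocarboxylate transporter family member, read 9.71, 9.34 and 9.57 in 3006 and 11.80, 11.28 and 11.79 in 3806, -2.08 ± 0.35 apart (adjusted p = 0.00220).

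ARRDC3, an arrestin-domain regulator of receptor traffic, read 8.18, 8.61 and 10.74 in 3006 and 11.40, 11.47 and 11.40 in 3806. Array 3006c lay near those of 3806, and the difference of -2.25 ± 0.47 (adjusted p = 0.0103) was not called in the fit of the 6 arrays alone (0.138), with the GAPDH ratio as a covariate (0.0642) or without 3006a or 3006b (up to 0.0764). RARRES1, a gene induced by retinoic acid, was present on 0 arrays of 3006 and 3 of 3806, with means of 4.50 and 7.11, and was at least 4.34-fold lower (adjusted p = 0.000300). HSBP1L1, AGBL3 and ZNF112 showed the same pattern of calls and were at least 4.94-fold, 3.79-fold and 3.56-fold lower (adjusted p = 0.00156, 0.00298 and 0.00381). LUM, which encodes the matrix proteoglycan lumican, was at least 2.87-fold lower by 1 probe set (means 4.31 and 6.51, adjusted p = 0.00849), while its 2 other probe sets were absent on all 6 arrays. For EIF4G1, a translation initiation scaffold, and MARVELD3, a tight junction protein, the bounds were 4.75-fold and 3.56-fold (adjusted p = 0.0142 and 0.0324). Neither was called on the 6 arrays alone (0.0910 and 0.160) or with the covariate (0.105 and 0.161), and they were called in 3 and 2 of the 6 fits without 1 array. ABCA8, an ATP-binding cassette transporter, was present on 0 arrays of 3006 and all 3 of 3806 (means 8.04 and 9.96) and at least 3.81-fold lower (adjusted p = 0.00813). The cotransporter SLC12A1 and the matrix gene HMCN1 completed the 15, at -2.10 and -1.92. SLC12A1 was not called after quantile normalization (adjusted p = 0.0812) or median centring (0.107), without the arrays of high GAPDH ratio (0.166), or when any single array was left out (0.0777 to 0.174). With the GAPDH ratio as a covariate its difference was -1.14 (0.409). Without the arrays of high ratio LUM (0.125) and ABCA8 (0.0562), on the 6 arrays alone HSBP1L1 (0.0832) and with the covariate AGBL3 (0.0550) were not called. Second probe sets of RARRES1, SLC12A1 and HMCN1 differed by 0.07, 0.50 and 0.63, and 3 further ones of ABCA8 by -0.70 to 0.10, and none was called.

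**Figure D4:**
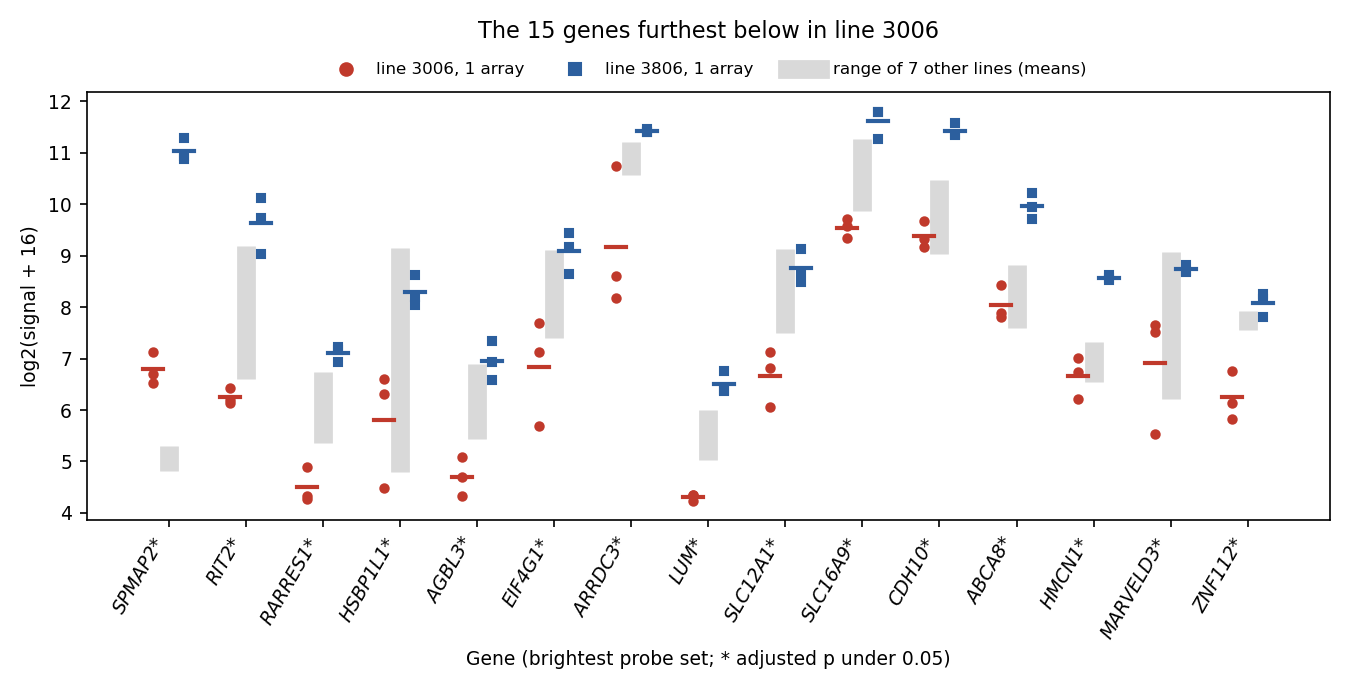
Level of the 15 genes furthest below in line 3006, as log2(signal + 16), on each array of line 3006 (circles) and line 3806 (squares), with bars at the line means and grey bars for the range of the means of 7 other lines. By the rule that chose them, no array of 3006 reaches an array of 3806, and for SPMAP2 the 7 other lines (4.82 to 5.31) lie below both lines. The single array of line 2906, at 8.66 for SPMAP2, is not in the grey bars.

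Of 6 probe sets whose identifiers name the mitochondrion, the genome of which is inherited through the dam, 2 were called lower in 3006. MmuMitochon.6.1.S1_s_at read 11.96, 11.81 and 11.44 in 3006 and 15.54, 15.56 and 14.99 in 3806 (-3.63 ± 0.32, adjusted p = 2.78e-06). MmuMitochon.10.1.S1_s_at read 13.11, 12.64 and 12.10 in 3006 and 14.93, 14.82 and 14.37 in 3806 (-2.09 ± 0.35, adjusted p = 0.00199). Both were separate between the lines. The other 4, at -1.51, -0.33, -0.06 and 0.47, were not called. Among these, MmuMitochon.4.1.S1_at (-1.51) and MmuMitochon.12.1.S1_s_at (0.47) were also without overlap between the lines. Besides the 4 lines of dam F88, sire M106 has the lines 106, 206 and 306 of dam F244, 2406 of F77 and 3806 of F32. The level of MmuMitochon.6.1.S1_s_at was 10.85 to 11.73 in the 4 lines of dam F88 and 14.97 to 15.36 in these 5 lines from other dams. The unnamed probe set furthest below was divided in the same way, with 5.42 to 6.14 in the lines of F88 and 10.68 to 11.13 in the 5 others. It was present on 0 arrays of 3006 and 3 of 3806, with means of 6.13 and 11.13, and was at least 32.1-fold lower (adjusted p = 2.78e-06). The next unnamed probe set ran over 6.60 to 7.41 in the lines of F88 and 10.26 to 10.68 in the 5 others, and differed by -3.91 ± 0.56 (adjusted p = 0.000609). MmuMitochon.4.1.S1_at, which was not called, was 13.71 to 13.95 in the lines of F88 and 14.85 to 15.26 in the 5 others. For MmuMitochon.3.1.S1_s_at these ranges were 12.95 to 14.98 and 15.00 to 15.35. Those of MmuMitochon.12.1.S1_s_at and MmuMitochon.13.1.S1_at overlapped. Line 906, of another sire and dam, had 13.21 for MmuMitochon.6.1.S1_s_at, 12.81 for MmuMitochon.10.1.S1_s_at and 15.55 for MmuMitochon.4.1.S1_at. It had 5.88 for the unnamed probe set furthest below, within the range of the F88 lines, and 7.89 for the next. Line means of F88 lay wholly apart from the 5 others at 3.46% of all probe sets, and by at least 1 at 0.0304%. Whether these probe sets differ in transcript level or in how well the transcript matches the probes was not tested.

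**Figure D5:**
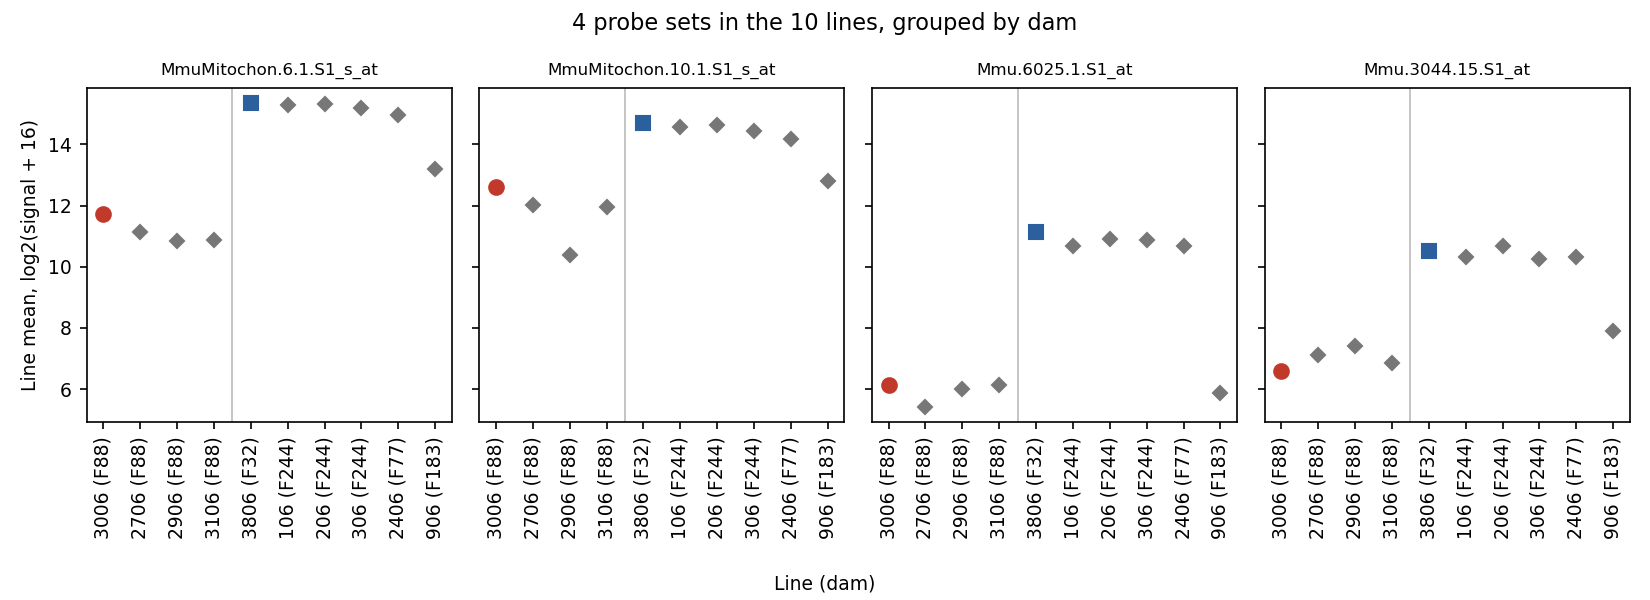
Mean level in each of the 10 lines, as log2(signal + 16), of 2 mitochondrial probe sets and 2 unnamed probe sets, with the dam in brackets after the line, 3006 as a circle and 3806 as a square. The 4 lines of dam F88 are left of the vertical line and lie below the 5 lines of sire M106 from other dams in all 4 panels, and line 906, of another sire and dam, has 5.88 for the unnamed probe set furthest below.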

How the data were processed

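Biotinylated cRNA was made from total RNA and read on Affymetrix rhesus arrays, per the labels' protocols. Each array has 1 deposited intensity value per probe set, and the submitters' processing notes name GCOS. No version or setting of it is given here. They had been scaled to a trimmed mean of 500 on every array, as computed from the deposited intensity values. Detection calls and 1 blank value came from a second deposited table; parents came from a deposited attributes table. Gene symbols came from the platform annotation, updated through RefSeq (rhesus assembly MMU8v2.0): of 52707 non-control probe sets, 24956 have 1 symbol, 361 several and 27390 none. Promoter sequences were not used here.

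Values were used as log2(signal + 16), without further normalization or a filter. This scale understates changes of dim genes. The fit (limma 3.58.1, R 4.3.3) had 1 mean per line over all 27 arrays, so that all lines share 1 spread, and the contrast 3006 minus 3806. The main contrast alone was run on simulated arrays, with independent noise and 1 spread per probe set shared by all lines. That setting leaves out the larger distances between arrays of 3006 and the GAPDH ratios that moved with the line. A probe set absent on all arrays of a line has only a bound there. The fold was computed against the higher of its own signal and the lowest signal called present, on the same scale. Where its own signal was the higher, the bound equals the fold between the line means, and no bound includes the spread between arrays. Named genes were the 15 furthest in each direction that were called, present on all arrays of the higher line and without overlap, up to 5 called members of each of 24 lists, 5 core factors, and 2 unnamed probe sets per direction. JUNB, ATF3, DUSP1, KLF6, IER5, FOS, NR4A2, BTG2, ZFP36, TPM1, CNN1, MYL9, AXL, CCN1, YAP1, MT2A, the uncalled pathway and matrix members and the mitochondrial probe sets were picked with their values in view. The lines, lists and tests were chosen with earlier results of these data known. Alternatives were other pseudocounts, filters, scalings, spread models and array weights, a block on the array letter, the GAPDH ratio, and leaving out line 2406 or single arrays. Plots were drawn with matplotlib 3.10.9.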

Additional observations from a re-analysis of the deposited data

How the results depend on the processing

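Of the alternatives, other pseudocounts (1409 and 2186 calls), a filter on the array median, quantile normalization, leaving out line 2406, the trend and robust prior, and a minimum difference of 1 kept the count within 1.5 times of 1642. Calls numbered 2604 with a filter on present calls, 3527 with array weights, 995 with median centring, 907 (519 higher, 388 lower) on the 6 arrays alone, 750 without arrays of a GAPDH ratio over 3, 784 with that ratio as a covariate, and 659 to 1549 when single arrays were left out; such fits hold fewer arrays. No call turned its sign, which the lack of overlap at 1636 of the 1642 fixes wherever arrays are only left out. The fit without arrays of high GAPDH ratio has 1 array of 3006, whose spread is assumed to be that of the other lines. The array letters did not pair the samples: the deviations of arrays with the same letter correlated at 0.07, 0.02 and -0.01. With the replicate block there were 1681 calls over all arrays, and 1 over the 6 arrays alone. The count for 3006 against the other lines was 449 without arrays of high GAPDH ratio, 1080 with the covariate, 1262 with median centring, 3189 with array weights and 591 to 1799 without single arrays. That for 3806 was 1191 with array weights, 678 with the present filter, 629 with a pseudocount of 64 and 131 to 407 without single arrays. The distance between the lines was 0.0396 with a pseudocount of 1, 0.0448 by Spearman rho, 0.0439 with the median filter and 0.0316 to 0.0371 without single arrays. Signs turned for POU5F1 (-0.009 after quantile normalization, -0.27 with the covariate), DPPA4 (-0.011 and -0.057 there, and -0.18 to 0.26 without single arrays, negative without 3006c) and MmuMitochon.13.1.S1_at (-0.54 to 0.39 without single arrays, positive without 3006c or 3806b), none called in any of these fits; their causes were not tested. Of 62 named and called items, 34 were called in every fit other than those on the 6 arrays alone.

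With 3 arrays a line, from 1 embryo each, the number of arrays limits the precision, and differences between lines cannot be told apart from differences between cultures or RNA preparations. Dim probe sets give bounds or background.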

Other observations

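Among all 1642 called probe sets, 153 (9.3%) divided the 4 lines of dam F88 from the 5 other lines of sire M106 without overlap of line means, 73 with the F88 lines higher and 80 with them lower. Over all 52707 probe sets 1822 (3.46%) did so. The gap was at least 1 at 14 of the called probe sets and at 16 (0.0304%) of all. This division was looked for after the mitochondrial probe sets had been seen, and it uses the lines that made the calls, so it is a description. Besides the probe sets already described, CLN3, the gene of a lysosomal membrane protein, was 4.53 to 4.64 in the lines of F88 and 6.45 to 7.71 in the 5 others, and TRABD2A, a metalloprotease that acts on WNT proteins, was 4.98 to 5.54 and 6.81 to 7.82. Line 906, of other parents, had 4.57 and 5.78.

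Median differences by chromosome ran over -0.06 to 0.03. Against 2.23% called higher and 2.04% lower over all genes, the X chromosome had 8 and 5 of 601 genes, chromosome 13 had 20 and 6 of 459, and chromosome 18 had 3 and 8 of 186.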
